A study of Canis lupus familiaris with 2 samples.

Results

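Acyl-CoA enzymes build, oxidise, split and hydrolyse the thioesters in which cells handle fatty acids, and 6 of them were measured in the left superior fat pads of dogs infected with a control lentivirus (lenti-control) or with a miR-206-overexpressing lentivirus (lenti-miR-206). The members were all probe sets annotated to ACAA1, ACADM, ACAT1, ACOT9, ACSBG1 or ACSS3, which gave 9 of the 1628 probe sets of the table and 6 of its 823 named genes. They were picked with their values on these same arrays known, so their directions are given as a description and support nothing. Both groups came from adult mongrel dogs of either sex whose fat pad on the left atrium was injected with virus, the control virus carrying a scramble sequence. Rapid atrial pacing, used in other groups of the study, is not mentioned in the labels, so the pools were taken to be unpaced. The labels give a time of 2 weeks after infection for the lenti-miR-206 group, and the methods give the same time for both groups. Total RNA of 3 dogs was mixed for each group and hybridised to 1 Affymetrix canine array, whose short probes are grouped into a probe set for each transcript. The fat pad is a mixture of fat, nerve ganglia, vessels and adjoining heart wall. Virus was injected at separate sites in it, and which cells it reached was not measured here. A pool has no spread between dogs, so no test was possible and no p-value is given. For its miRNA sequencing of control and paced dogs, the paper states that fat was kept out of the RNA where possible. The paper does not describe these arrays, so it does not tell whether the same was done here.

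Fatty acids enter metabolism once an acyl-CoA synthetase has joined them to coenzyme A, and a thioesterase can undo that step. In mitochondria, beta-oxidation shortens the chain by repeated dehydrogenation, hydration, a second dehydrogenation and thiolysis, and passes electrons to the respiratory chain. Peroxisomes run a related cycle on very long and branched chains. The heart takes most of its energy from fatty acid oxidation, whereas white fat stores fatty acids as triglyceride and releases them.

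The values are log2 intensities made by the authors with RMA, which corrects the background, brings arrays to a common distribution and summarises each probe set. The table is a selection: the smallest difference between the arrays in it is a log2 value of 1, or 2-fold, and genes with smaller differences are not analysed here. Of the 823 genes, each represented by its probe set with the highest mean, 74.2% were at least 2-fold higher and 25.8% at least 2-fold lower in the lenti-miR-206 pool, and the median of their log2 differences, always taken as lenti-miR-206 minus lenti-control, was 1.17. Neither of the 2 kinds of control probe sets is shown to be an unchanged level. The control probe sets in the table also differ by at least 2-fold, so any with smaller differences are unseen. Their medians and ranges, and all values relative to them, rest on this selection, and the spike-in range ends at its edge. The 13 listed spike-in controls, transcripts foreign to the dog, had log2 differences from -1.17 to -1.001 with a median of -1.08, and the 5 listed for GAPDH, an enzyme of glycolysis, ran from 1.16 to 1.43 with a median of 1.31. Of the 19 control probe sets in the table, those of neither kind were not used as a level.

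As deposited, 2 of the 6 enzymes were higher and 4 lower in the lenti-miR-206 pool, beside the 74.2% of genes higher and 25.8% lower over the whole table, and the split became 0 and 6 relative to the GAPDH controls and 3 and 3 relative to the spike-in controls. Since the members were chosen from these differences, nothing is read from that count. The members higher as deposited were ACADM and ACSBG1, both little above 2-fold. The lower members ran from ACOT9, at the edge of the table, through the thiolases ACAA1 and ACAT1 to ACSS3, which stood farthest from the others. In tissue pools, fewer cells of a type and less RNA in each cell cannot be told apart.

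ACADM encodes the medium-chain acyl-CoA dehydrogenase, the mitochondrial enzyme that takes the first electrons from chains of medium length in beta-oxidation. Its only probe set in the table, CfaAffx.31225.1.S1_at, gave a log2 intensity of 7.06 for lenti-control and 8.13 for lenti-miR-206. The log2 difference was 1.07, or 2.10-fold higher. This was a small difference among the increases of the table, since 512 of the 611 higher genes had a larger one.

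The thiolases carry out or reverse the cleavage that releases acetyl-CoA, and both members of this kind were lower. ACAT1, the mitochondrial acetoacetyl-CoA thiolase of ketone body and isoleucine metabolism, was read by Cfa.1502.1.S1_at, with a log2 intensity of 11.38 for lenti-control and 9.90 for lenti-miR-206. Its log2 difference was -1.48, which leaves 36.0% of the lenti-control level (2.78-fold lower). Among the 212 lower genes, 76 had a larger decrease.

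ACAA1, the 3-ketoacyl-CoA thiolase that ends each round of peroxisomal beta-oxidation, was read by 3 probe sets. Cfa.6351.1.S1_a_at, which has the highest mean, gave 10.04 for lenti-control and 8.79 for lenti-miR-206 as log2 intensities. Its log2 difference was -1.25, which leaves 42.0% of the lenti-control level (2.38-fold lower). All 3 probe sets were lower as deposited, but the differences of both s_at probe sets lay within the range of the spike-in controls (-1.17 to -1.001). Cfa.6351.2.A1_s_at gave log2 intensities of 9.20 for lenti-control and 8.10 for lenti-miR-206, with a difference of -1.11. Cfa.6351.1.S1_s_at had 8.80 and 7.70 in the same order, with a difference of -1.10. The largest and the smallest decrease lay 0.15 apart on the log2 scale, but the probe sets are no independent replicates: they read the same pools, and the 3 derive from 2 source sequences. The suffix a_at marks probes shared by transcripts of 1 gene and s_at marks probes that can also read related genes.

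The synthetases among the members went in opposite directions. ACSS3, a mitochondrial short-chain acyl-CoA synthetase that acts on propionate, was read by 2 probe sets. Cfa.10333.1.A1_at gave a log2 intensity of 9.02 for lenti-control and 6.23 for lenti-miR-206. Its log2 difference of -2.79 leaves 14.4% of the lenti-control level (6.92-fold lower). Only 8 of the 212 lower genes had a larger decrease. Cfa.10333.1.A1_s_at gave 8.18 for lenti-control and 6.34 for lenti-miR-206, a log2 difference of -1.84 or 3.57-fold lower. Both probe sets of ACSS3 were lower, but the sizes differed by 0.95 on the log2 scale although both derive from 1 source sequence. The size of the decrease therefore depends on the probe set, while both read a decrease of at least 3-fold as deposited.

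ACSBG1, an acyl-CoA synthetase for long and very long chains, known from brain, adrenal gland and gonads, was read by Cfa.7297.1.A1_at. The log2 intensity was 6.81 for lenti-control and 7.86 for lenti-miR-206. The log2 difference was 1.05, or 2.07-fold higher, and 544 of the 611 higher genes had a larger one. Glia and neuron marker genes are given beside it because nerve tissue is a known site of ACSBG1. Of 10 glia markers listed, 3 were in the table and all 3 were lower, with a median log2 difference of -1.45. Of 12 neuron markers listed, 6 were in the table, with 5 lower and 1 higher. The shares over all 823 genes were 25.8% lower and 74.2% higher. A link between these markers and ACSBG1 was not tested.

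ACOT9, a mitochondrial thioesterase that hydrolyses acyl-CoA to free acid and coenzyme A, was read by Cfa.2052.1.A1_at. The log2 intensity was 7.37 for lenti-control and 6.36 for lenti-miR-206. The log2 difference was -1.01, which leaves 49.7% of the lenti-control level (2.01-fold lower). ACOT9 lay only 0.0087 inside the 2-fold edge of the table, and 4 of the 212 lower genes had a smaller decrease. ACSBG1 and ACADM lay 0.050 and 0.071 inside the edge on the other side.

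**Figure D1:**
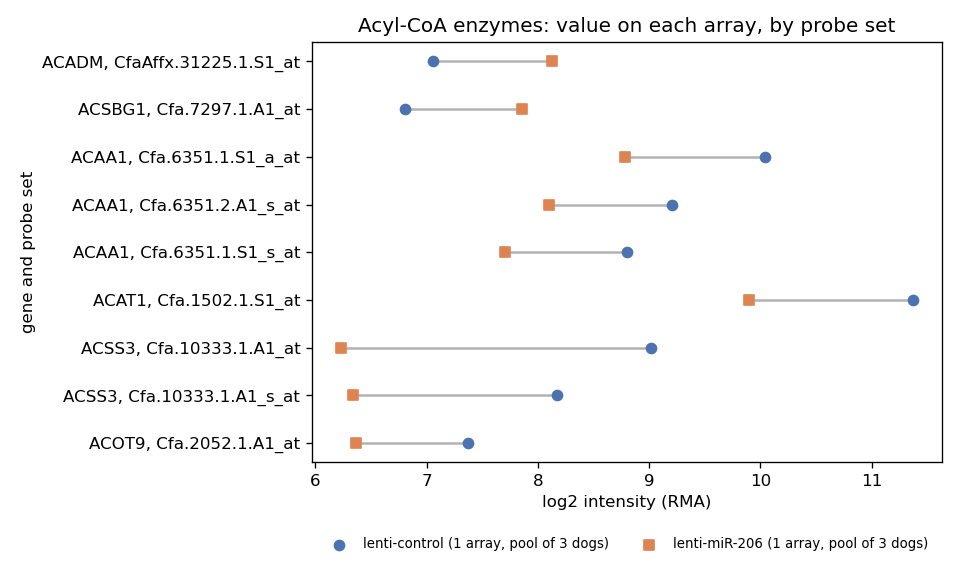
Log2 intensity (x axis) of the 9 probe sets of the 6 enzymes (y axis, gene and probe set) on the lenti-control array (circles) and the lenti-miR-206 array (squares), 1 array of pooled RNA from 3 dogs each, with a grey line joining the values of a probe set. ACADM and ACSBG1 have their square on the right, and the other 7 probe sets have it on the left, with the longest line for ACSS3 (from 9.02 to 6.23).

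None of the member values lay at the lowest level of the table, which is a log2 intensity of 2.95. The dimmest was that of ACSS3 in the lenti-miR-206 pool, 6.23, which is 3.28 above it. Detection calls were not used, so whether the dimmer values of ACSS3, ACOT9 and ACSBG1 were above background is not known. At the stricter threshold of 3-fold, 0 of the 6 members were higher and 1, ACSS3, was lower, while 20.5% of the genes of the table were higher and 7.65% lower.

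**Figure D2:**
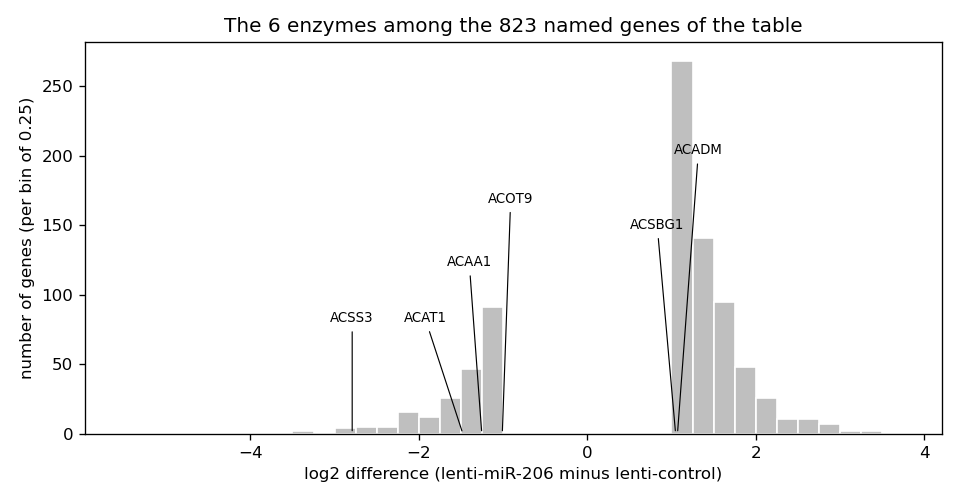
Histogram of the log2 differences (x axis, lenti-miR-206 minus lenti-control) for all 823 named genes, as number of genes per bin of 0.25 (y axis), with lines to the differences of the 6 enzymes. ACADM (1.07), ACSBG1 (1.05) and ACOT9 (-1.01) lie at the inner edges of the distribution, ACSS3 (-2.79) lies in its lower tail, and no gene lies between -1 and 1 since smaller differences are outside the table.

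Mitochondrial members went both ways. As deposited, of the 4 mitochondrial members, ACADM was higher and ACAT1, ACSS3 and ACOT9 were lower. The peroxisomal member ACAA1 was lower, and ACSBG1, which works outside both organelles, was higher. Relative to GAPDH all 4 mitochondrial members were lower, and relative to the spike-in controls 2 were higher and 2 lower. Sorted by step, as deposited, the dehydrogenase was higher, both thiolases were lower, 1 synthetase was higher and 1 lower, and the thioesterase was lower. With 1 or 2 genes a step, these are descriptions of single genes.

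The same sorting was made over 112 enzymes, carriers and binding proteins on 8 lists of acyl-CoA metabolism. Of these, 19 were in the table, the 6 members included, with 8 higher and 11 lower (42.1% higher) and a median log2 difference of -1.02, beside 74.2% higher and a median of 1.17 over all 823 genes. Since the table holds nothing between -1 and 1, the sign of such a median only shows which side holds more genes. The split was 11 higher and 8 lower relative to the spike-in controls, beside 78.5% of all genes higher, and 2 higher and 17 lower relative to GAPDH, beside 36.8% higher. The other 93 listed genes are not analysed here, and 9 of the listed symbols are absent from the reference gene table used for names, so genes under another name may have been missed. Of the 13 listed genes outside the members, 6 were higher and 7 lower. All these counts are of genes with at least a 2-fold difference and say nothing of the rest of each list.

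Next to ACADM, the other listed genes of mitochondrial beta-oxidation in the table were also higher. Of 18 genes on that list, 4 were in the table, each of them higher, beside 74.2% of all genes, and their median log2 difference was 1.23. Relative to the GAPDH median 3 of the 4 turned lower, and ETFA, DECR1 and ETFDH lay within the range of the GAPDH controls (1.16 to 1.43). ETFA encodes a subunit of the flavoprotein that accepts electrons from ACADM, and its log2 intensity was 8.60 for lenti-control and 9.81 for lenti-miR-206, a difference of 1.21. ETFDH, which passes those electrons on to ubiquinone, had 5.69 and 7.05 in the same order, a difference of 1.36. DECR1, the reductase needed for unsaturated chains, had 7.70 and 8.94, a difference of 1.25. ACADM had the smallest difference of the 4. From the carnitine shuttle, which brings long chains into mitochondria, 1 of 6 listed genes was in the table: CPT1B, the muscle form of carnitine palmitoyltransferase 1, with 7.35 for lenti-control, 8.47 for lenti-miR-206 and a difference of 1.12, which also turned lower relative to GAPDH. PCCB, a subunit of the mitochondrial propionyl-CoA carboxylase, was the only 1 of 19 listed genes of branched-chain and propionyl-CoA breakdown, with a difference of 1.03 and, for its second probe set, 1.11, both of which turned lower relative to GAPDH.

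Next to the thiolases, the picture differed between the lists. HSD17B4, the bifunctional enzyme that acts just before ACAA1 in the peroxisomal cycle, gave log2 intensities of 9.05 for lenti-control and 7.99 for lenti-miR-206, a difference of -1.06, within the range of the spike-in controls. AMACR, a racemase for branched chains found in both organelles, was higher, with a difference of 1.52 as deposited and 0.22 relative to GAPDH. Of 17 peroxisomal genes, 3 were thus in the table, with 1 higher and 2 lower as deposited, beside 74.2% of all 823 genes higher and 25.8% lower. ACAT1 was joined by BDH1, the mitochondrial 3-hydroxybutyrate dehydrogenase of ketone body metabolism, with 8.35 for lenti-control, 6.92 for lenti-miR-206 and a difference of -1.43. These were the only 2 of 9 listed genes of acetoacetyl-CoA and ketone bodies, and both were lower as deposited and relative to either kind of control. Over all 823 genes, 78.5% were higher relative to the spike-in controls and 36.8% relative to GAPDH.

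The 4 largest decreases among the 19 genes were those of synthetases. Of 23 listed, 6 were in the table, with 5 lower and ACSBG1 as the only 1 that was higher (lower relative to GAPDH), and the median log2 difference was -1.85. Over all 823 genes, 25.8% were lower and 74.2% higher as deposited. After ACSS3 (-2.79) came ACSL1, a main long-chain synthetase of fat and heart, with -2.12, and ACSM3, a mitochondrial medium-chain synthetase, with -2.07. Both ACSL1 and ACSM3 were read only by an s_at probe set, which can also read related genes. ACSF2, also mitochondrial, followed with -1.63 and SLC27A6, a fatty acid transport protein of heart with synthetase activity, with -1.38. The values of SLC27A6, 4.95 for lenti-control and 3.58 for lenti-miR-206, were near the lowest of the table. ACOT9 was the only 1 of 14 listed thioesterases, and DBI, the acyl-CoA binding protein, the only 1 of 6 listed binding proteins, with a difference of -1.02. Both lay within the range of the spike-in controls, which is cut at the 2-fold edge of the table. Their direction relative to those controls is therefore not settled. Over all 19 genes, 12 are placed in mitochondria, with 6 higher and 6 lower as deposited, 7 and 5 relative to the spike-in controls, and 1 and 11 relative to GAPDH. The shares of all 823 genes that were higher were 74.2%, 78.5% and 36.8% in the same order. Among these 12, the genes higher as deposited belong to the carnitine shuttle, dehydrogenation and electron transfer, unsaturated chains and propionyl-CoA carboxylation, and the lower genes to acyl-CoA synthesis, thiolysis, ketone bodies and hydrolysis.

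**Figure D3:**
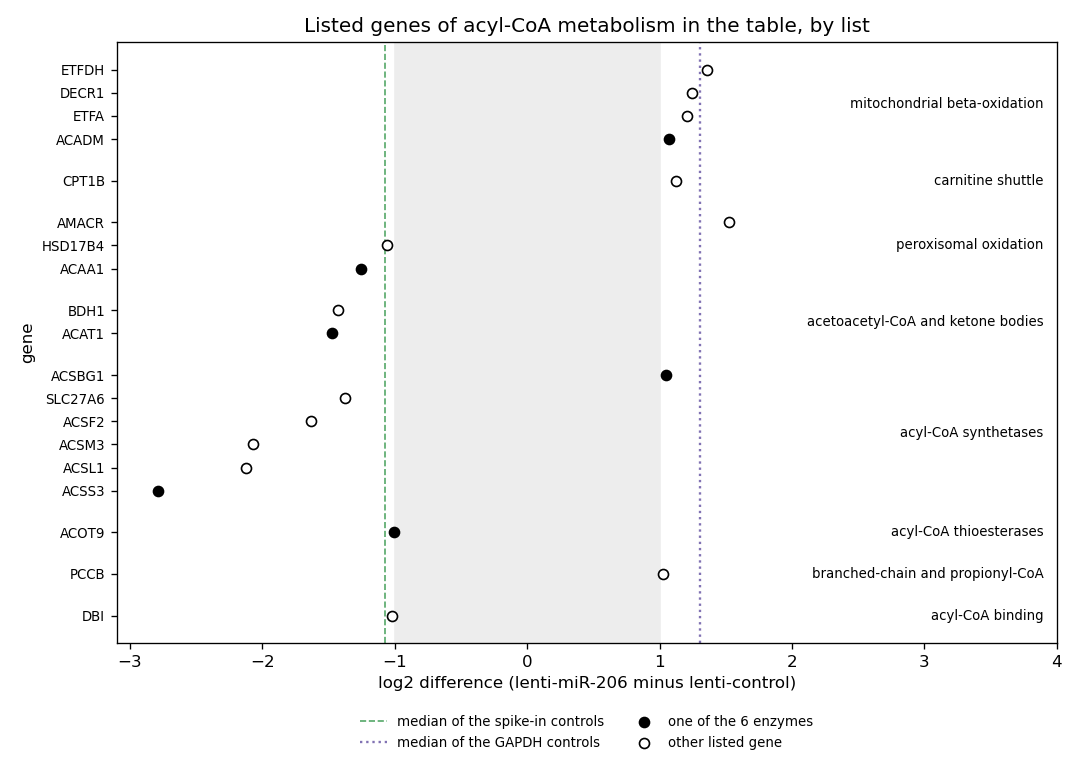
Log2 difference (x axis, lenti-miR-206 minus lenti-control) for 19 listed genes of acyl-CoA metabolism in the table (y axis), grouped by list, with filled points for the 6 enzymes, open points for the other 13 genes, a grey band where the table holds no values, and lines at the medians of the spike-in controls (-1.08) and the GAPDH controls (1.31). All 4 genes of mitochondrial beta-oxidation lie on the right, as deposited, and 5 of 6 synthetases on the left, while 3 of those 4 lie left of the GAPDH line.

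Among 11 regulators of fatty acid oxidation, 3 were in the table, with 2 higher and 1 lower as deposited, beside 74.2% of all 823 genes higher. PPARGC1A, a coactivator of oxidative genes, was 2.83-fold higher, the corepressor NCOR1 was 2.13-fold higher (lower relative to GAPDH), and PPARG, the nuclear receptor of fat cells, was 4.88-fold lower. Their values were read on the same arrays as the members and show no link between a regulator and an enzyme.

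The signs of ACADM, ACSBG1 and ACOT9 depended on the level taken as unchanged. Relative to the median of the GAPDH controls, ACADM had a log2 difference of -0.24 and ACSBG1 of -0.26, so that 0 of the 6 members were higher, beside 36.8% of all 823 genes. Relative to the spike-in controls, ACOT9 had 0.068 and 3 of the 6 members were higher, beside 78.5% of all genes, but its deposited -1.01 lay within the range of those controls. ACAA1 kept -0.18 and ACAT1 -0.40 relative to the spike-in controls, and the other probe sets of ACAA1 had -0.032 and -0.023. ACSS3 was lower by all 3 measures, with -1.71 relative to the spike-in controls and -4.10 relative to GAPDH, and its s_at probe set had -0.76 and -3.14. In the listed neighbours of ACADM, ETFA, DECR1 and CPT1B turned lower relative to GAPDH (-0.097, -0.059 and -0.18), and ETFDH did not (0.049).

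Distances between members do not depend on such a shift, since it moves all genes alike, but a higher and a lower member lie at least 2 apart by the selection of the table, so nothing is read from the gaps between them. The difference of ACADM lay 2.32 above that of ACAA1 and 2.55 above that of ACAT1 on the log2 scale. The synthetases ACSBG1 and ACSS3 lay 3.84 apart. ACADM and ACSBG1 lay only 0.021 apart, and ACAA1 and ACAT1 0.22 apart. With no replicate, the error of these distances is unknown.

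**Figure D4:**
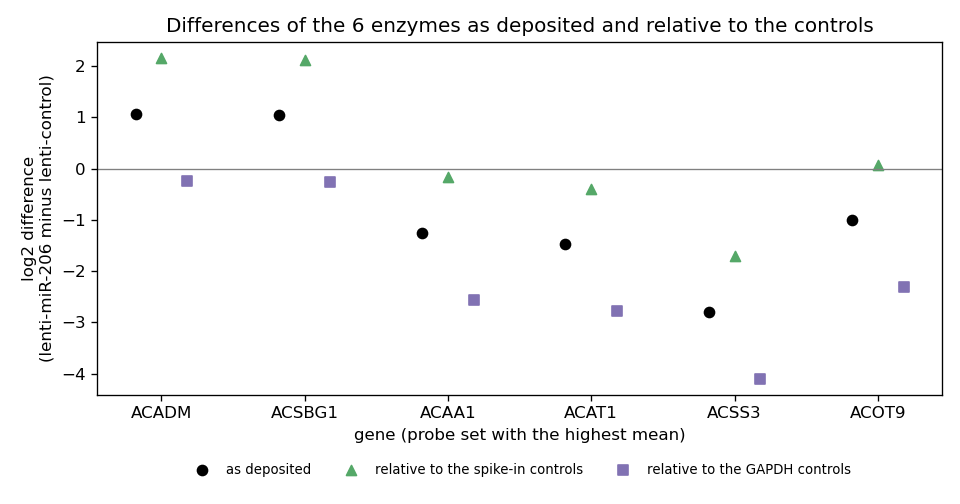
Log2 difference (y axis, lenti-miR-206 minus lenti-control) for the 6 enzymes (x axis, probe set with the highest mean) as deposited (circles), relative to the median of the spike-in controls (triangles) and relative to the median of the GAPDH controls (squares). ACADM and ACSBG1 fall below 0 relative to GAPDH (-0.24 and -0.26), ACOT9 crosses to 0.068 relative to the spike-in controls, and ACSS3 stays between -1.71 and -4.10.

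Markers of heart muscle and of fat also differed between the pools. Over all 823 genes, 74.2% were higher as deposited and 36.8% relative to GAPDH. Of 20 cardiomyocyte markers, 15 were in the table and all 15 were higher, 13 of them also relative to GAPDH, with log2 differences from 1.17 to 2.83 and a summed linear intensity of 40419 for lenti-control and 111102 for lenti-miR-206, or 2.75-fold higher. The range includes NPPB, a natriuretic peptide, with 2.83 and CKMT2, the creatine kinase of muscle mitochondria, with 2.30. Of 14 adipocyte markers, 10 were in the table and all 10 were lower, from -1.12 to -2.87, with summed intensities of 49687 and 14300 in the same order, or 3.47-fold lower. Fat cell markers were still bright on the lenti-miR-206 array, as with CIDEA, a protein of the lipid droplet, whose log2 intensity was 13.00 for lenti-control and 10.13 for lenti-miR-206. The median log2 difference of the 10 adipocyte markers was -1.94, and the largest decreases were those of CIDEA with -2.87 and the fatty acid synthase FASN with -2.74. Smooth muscle markers were higher too (7 of 7 in the table, of 10 listed; summed intensity 1778 and 5578), led by MYLK with 1.96 and KCNJ8 with 1.88. Neuron markers were lower in 5 of 6 in the table, of 12 listed, with summed intensities of 1199 and 603, led by CHGB with -4.43 and SNAP25 with -3.52. The lenti-miR-206 values of CHGB (3.84) and SNAP25 (3.45) were near the lowest of the table (2.95), so the sizes of these decreases are uncertain. For the 3 glia markers the sums were 1622 and 520, with S100B at -2.96 and MAL at -1.45. The table holds no difference smaller than 2-fold, so listed markers with smaller differences are unseen. The part of tissue composition in the differences of ACADM, ACSBG1, ACAA1, ACAT1, ACSS3 and ACOT9 was not tested.

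With 2 arrays, likeness between genes could be measured only as the distance between their pairs of log2 values, and it says nothing of shared function or control. Outside the lists, the nearest named gene was DNAJC10 to ACADM (distance 0.018), RNASEK to ACSBG1 (0.019), ARL6IP1 to ACAA1 (0.097), LOC478277 to ACOT9 (0.094), ANXA1 to ACAT1 (0.20) and MTARC1 to ACSS3 (0.27). In the NCBI genes of UU_Cfam_GSD_1.0, a dog assembly, 5 members were found by identifier, on 5 chromosomes. Of their 10 adjacent protein-coding genes, 3 were in the table, namely both neighbours of ACSBG1, IDH3A with a log2 difference of 1.13 and DNAJA4 with 2.24, and CUL5 next to ACAT1, which was higher (1.19) where ACAT1 was lower. All 3 were higher, beside 74.2% of all 823 genes. These neighbours were named after their values were seen, so nothing is read from their directions.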

How the data were processed

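The deposited values are log2 intensities for which the submitters' processing notes name RMA. Version, software and genome build were not given in the sources used here. RNA of 3 dogs was pooled for each of the 2 arrays, and the number of arrays limits the precision. One label names a small RNA library, but the values come from mRNA probe sets. The table of 1628 probe sets and 19 controls holds only differences of at least 2-fold. RMA assumes that most transcripts are alike and shrinks differences at the dim and the bright end. Genes were named through the platform annotation, with 1102 probe sets updated by Entrez identifier through the NCBI gene table and 80 keeping their old symbol, ACOT9 among them. Log2 differences were computed in Python 3.11.15 (pandas 2.3.3, numpy 2.4.6), and figures were made with matplotlib 3.10.9. The steps were run on simulated data with low noise and differences of at least 2-fold, where recovery of the direction was assured. That run checks the code and says nothing of the error of these arrays. No comparison between groups was tested, since each has 1 array. A gene is represented by its probe set with the highest mean. The members, the 9 pathway lists, the 5 marker lists and the alternatives were chosen with earlier results of these data known, and compartments and steps were assigned after the values were seen. Named were all members, every listed pathway gene in the table, the 2 markers with the largest differences of each list and the gene nearest to each member. Sequences of probes, transcripts and proteins were not used here.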

Additional observations from a re-analysis of the deposited data

How the results depend on the processing

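A log2 difference or a count was taken to have moved if the larger was over 1.5 times the smaller, the reported value being the other. For log2 differences this is a ratio of log2 values, not a fold change in level. By this rule ACSS3 relative to GAPDH (-4.10 against -2.79) had not moved. Averaging a gene's probe sets moved none of the results. Leaving out s_at and x_at or dim probe sets could not change a member, since neither filter removed a probe set that represents one. Nothing is read from those 2 settings for the members. With the probe set of the smallest difference ACSS3 had -1.84. Without s_at and x_at probe sets, the higher genes numbered 2 for mitochondrial beta-oxidation, 0 for the carnitine shuttle, 0 for peroxisomal oxidation and 1 for regulators, and the lower genes 3 for synthetases and 0 for regulators. The listed genes read only by s_at probe sets were ETFA, DECR1, CPT1B, AMACR, ACSL1, ACSM3, NCOR1 and PPARG. Without dim probe sets 1 regulator was higher. Shares over all genes under these 2 filters were not computed, so nothing is read from the counts. After subtraction of the spike-in median, the log2 differences were -0.18 for ACAA1, 2.15 for ACADM, -0.40 for ACAT1, 0.068 for ACOT9 (turned higher), 2.13 for ACSBG1 and -1.71 for ACSS3. The higher and lower genes were then 2 and 1 for peroxisomal oxidation, 1 and 0 for thioesterases and 1 and 0 for acyl-CoA binding. Relative to the GAPDH controls they were -2.56 for ACAA1, -0.24 for ACADM and -0.26 for ACSBG1 (both turned lower), -2.78 for ACAT1 and -2.32 for ACOT9. Higher and lower were then 1 and 3 for mitochondrial beta-oxidation, 0 and 1 for the carnitine shuttle, 0 and 1 for propionyl-CoA, and 1 and 2 for regulators, and 0 members and 0 synthetases were higher. These turns follow from subtracting the control median. Of all 823 genes, 78.5% were higher relative to the spike-in controls and 36.8% relative to GAPDH. At 3-fold, 0 members were higher and 1 was lower, and 0 genes were left for beta-oxidation, carnitine shuttle, peroxisomal oxidation, ketone bodies, thioesterases, propionyl-CoA, acyl-CoA binding, higher synthetases and higher regulators. Of all 823 genes, 20.5% were higher and 7.65% lower at 3-fold. No paired analysis was possible because each group has 1 array. No replicate could be left out for the same reason.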
